A study of Homo sapiens with 6 samples.

Results

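The TRIM family, apart from TRIM21, was examined in RKO, a human cell line established from a colon carcinoma of low differentiation. Members were all rows of the gene tables whose symbol was TRIM followed by a number and at most 1 letter, without TRIM21, which gave 71 of 28278 rows. Total RNA was sequenced after ribosomal RNA depletion from 3 libraries of cells that stably carried a lentiviral hairpin against TRIM21 (shTRIM21) and 3 of cells with a scrambled hairpin (shControl). Both sets were selected with puromycin at 5 µg/ml from 36 h after infection for 2 to 3 weeks. As far as the labels say, each arm is a single hairpin or pool in a single line, and the libraries are labelled biological replicates with no separate infection or culture named. P-values therefore measure the spread between these libraries, which may be technical. In bulk RNA, fewer cells of a type and less RNA per cell cannot be told apart.

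TRIM proteins share an N-terminal tripartite motif of a RING finger, 1 or more B-box zinc fingers and a coiled coil, and most act as E3 ubiquitin ligases that pass ubiquitin from an E2 enzyme to a substrate. The C-terminal domain sets what a member binds: a SPRY domain in the largest class, a PHD finger and bromodomain in chromatin regulators such as TRIM28, and filamin or NHL repeats in others. Several members act in innate immunity, and a number of their genes respond to interferon. TRIM21 belongs to the RING, B-box and SPRY class. Not every row is a ligase gene: TRIM14, TRIM16, TRIM29, TRIM44 and TRIM66 encode proteins without a RING finger, and TRIM16L is annotated as a transcribed pseudogene.

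Libraries held 33499827 to 44466137 counts, of which ribosomal RNA rows took 16.99% to 23.5% in shTRIM21 and 14.7% to 36.9% in shControl. The targeted gene TRIM21 had 299, 271 and 297 counts in shTRIM21 and 459, 421 and 343 in shControl, a log2 fold change of -0.54 (SE 0.116, edgeR adjusted p = 0.00424). That estimate was -0.34, not called, with library sizes alone. Of 10 colon epithelial markers 8 were tested, with a summed level of 4639 to 4881 CPM (counts scaled to a common library size) in shTRIM21 and 5971 to 6637 CPM in shControl, and CDX1 was listed at 0. The keratin genes KRT8, KRT18 and KRT19 were called lower and CDH1 higher, 50% of those tested beside 20.8% of all tested genes. KRT8 alone averaged 2501 CPM in shTRIM21 and 3384 CPM in shControl. EPCAM, KRT20, VIL1 and CDX2 were not called, with log2 fold changes of 0.13, 0.98, -0.053 and -0.0044. The summed level and the called markers moved with the groups, and their part in the results was not tested. Markers of haematopoietic cells summed to at most 0.689 CPM in any library, with CD3E at 0. Fibroblast markers summed to 10.47 to 11.02 CPM in shTRIM21 and 6.15 to 9.19 CPM in shControl, with DCN and LUM at 0. Most of this sum was COL1A1, at a mean of 10.2 CPM in shTRIM21 and 7.88 CPM in shControl, which was not called (edgeR adjusted p = 0.0589). Endothelial markers summed to at most 0.720 CPM, with CDH5 at 0.

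Of the 71 members, 47 were measured well enough to test, 9 had counts too low to test, and 15 were listed at 0 in all 6 libraries. The 15 were TRIM40, TRIM42, TRIM43, TRIM43B, TRIM48, TRIM49, TRIM49C, TRIM51, TRIM58, TRIM60, TRIM63, TRIM64, TRIM64B, TRIM64C and TRIM77. They include TRIM63, a muscle ligase gene that drives protein breakdown in atrophy, and TRIM58, an erythroid ligase gene. A count of 0 allows up to 3 counts, which is 0.0828 CPM in the smallest scaled library, counting error only. A 0 in these tables need not mean silence, since FBL, RPL7A, CANX and TJP1, which most cells use, were also listed at 0. Some of the 15 are near copies: TRIM43 and TRIM43B, TRIM49 and TRIM49C, and TRIM64 and TRIM64B have 76.9%, 81.9% and 83.2% of the 50-base words of the first-named gene's transcripts in the other. The 9 members between positions 49028823 and 90073531 of chromosome 11 (GRCh38.p14) included 8 of the 15 and no member that could be tested. They lie in separate stretches and not in 1 cluster, with TRIM64C ending at 49059112 and TRIM48 starting at 55262155.

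The 9 members too low to test were TRIM17, TRIM31, TRIM49B, TRIM50, TRIM55, TRIM61, TRIM67, TRIM69 and TRIM71. TRIM31, known from gut epithelium, had 0, 1 and 7 counts in shTRIM21 and 0 in each shControl library. TRIM71, a stem cell regulator related to worm LIN-41, had 0 in each shTRIM21 library and 0, 0 and 4 counts in shControl. TRIM69 had 11, 0 and 4 counts in shTRIM21 and 3, 0 and 14 in shControl. TRIM67, a neuronal gene, had 0, 3 and 0 counts in shTRIM21 and 10, 0 and 2 in shControl. In these 4 genes the counts came from a few libraries of either group. The other 5 had at most 10 counts in any library.

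The members together gave 2127, 2188 and 2192 CPM in shTRIM21 and 2306, 2243 and 2286 CPM in shControl. On this TMM scale the sum was lower in every shTRIM21 library than in any shControl library. On other scales it was not: per 1e6 total counts the members had 2297, 2252 and 2476 in shTRIM21 and 2069, 2437 and 1863 in shControl, and without ribosomal rows 2845 to 2983 in shTRIM21 and 2857 to 2999.9 in shControl. TRIM28, the co-repressor that KRAB zinc finger proteins recruit to silence retroelements, made up 35.7% ± 1.25 of the members' counts in shTRIM21 and 35.6% ± 1.68 in shControl (SD, n = 3 each). Per kb of the longest annotated transcript, TRIM28 stood at 268 CPM per kb over the 6 libraries, 7.40-fold above TRIM25 at 36.2 CPM per kb. TRIM25, a ligase that activates the RNA sensor RIG-I, and TRIM47 came next, and their ranges over libraries overlapped at 34.1 to 37.7 and 29.9 to 36.8 CPM per kb. TRIM27 at 16.6, TRIM26 at 15.8 and TRIM65 at 15.03 CPM per kb followed, also with overlapping ranges. At the low end of the tested members were TRIM29 at 0.184, TRIM54 at 0.161, TRIM73 at 0.137 and TRIM22 at 0.130 CPM per kb. TRIM72, known as a membrane repair gene of striated muscle, was listed at 5.55 CPM per kb. Ordering by the union of annotated exons moved some neighbours, such as TRIM25 and TRIM47, past each other. Of TRIM47's 50-base words, 47.1% also occur in another gene, AC087289.5, and the effect of this on its level was not tested.

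**Figure D1:**
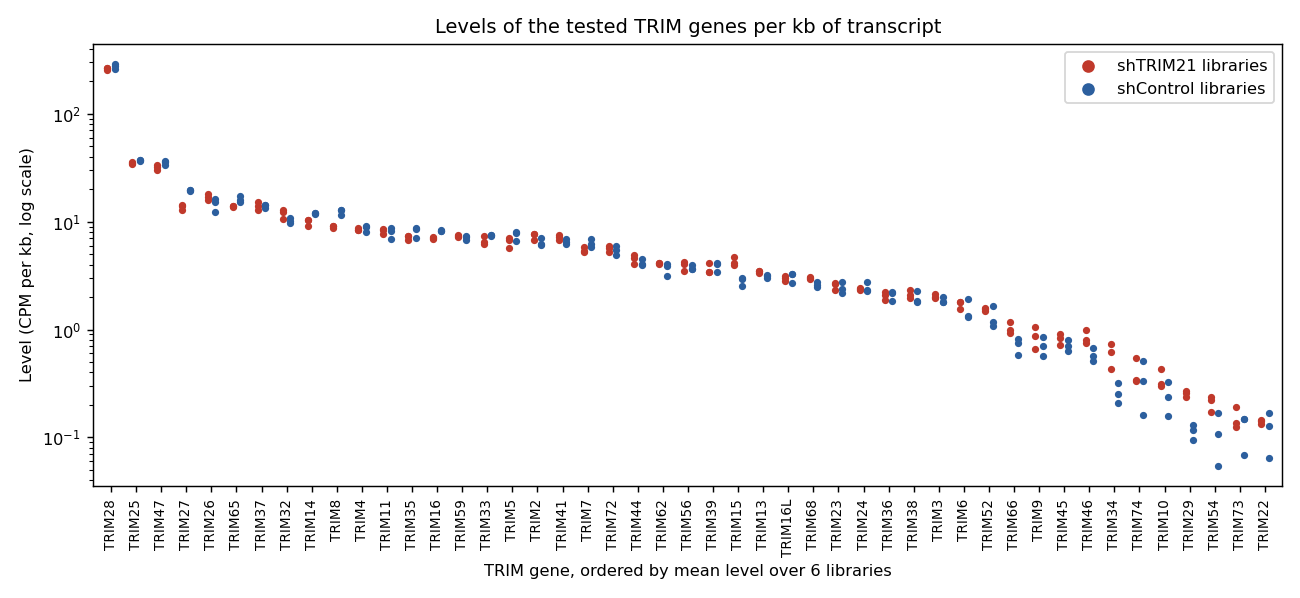
Level of each tested TRIM gene in CPM per kb of its longest annotated transcript, on a log axis, with 1 point per library (3 shTRIM21, 3 shControl). TRIM28 lies alone at 268 CPM per kb on average, and the other members fall from 36.2 (TRIM25) to 0.130 CPM per kb (TRIM22).

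Between shTRIM21 and shControl, 10 of the 47 tested members were called, 5 lower and 5 higher (edgeR's quasi-likelihood test, adjusted p under 0.05 over all 15131 tested genes). TRIM27, TRIM8, TRIM14, TRIM16 and TRIM65 were lower, and TRIM15, TRIM66, TRIM34, TRIM29 and TRIM32 were higher. The 10 make up 21.3% of the tested members, beside 20.8% of all tested genes (9.77% higher and 11.0% lower), so the share called in the family was near the background. The median log2 fold change of the 47 was 0.11, beside 0.0054 for all tested genes. That of the tested members was 0.059 with a minimum count of 50, and 0.041 to 0.13 without single libraries. Groups did not overlap for 15 of the 47 (31.9%), beside 37.7% of all tested genes. Of the called members, 7 changed by less than 1.5-fold and 2 by at least 2-fold. The split of calls depended on scaling: upper-quartile factors gave 6 higher and 3 lower, and library sizes alone 6 higher and 0 lower, with the median of all tested genes moved to 0.22. Without shControl replicates 1 and 3, the libraries with 31.0% and 36.9% ribosomal RNA, 4 members were called: TRIM27 and TRIM8 lower, TRIM15 and TRIM66 higher.

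**Figure D2:**
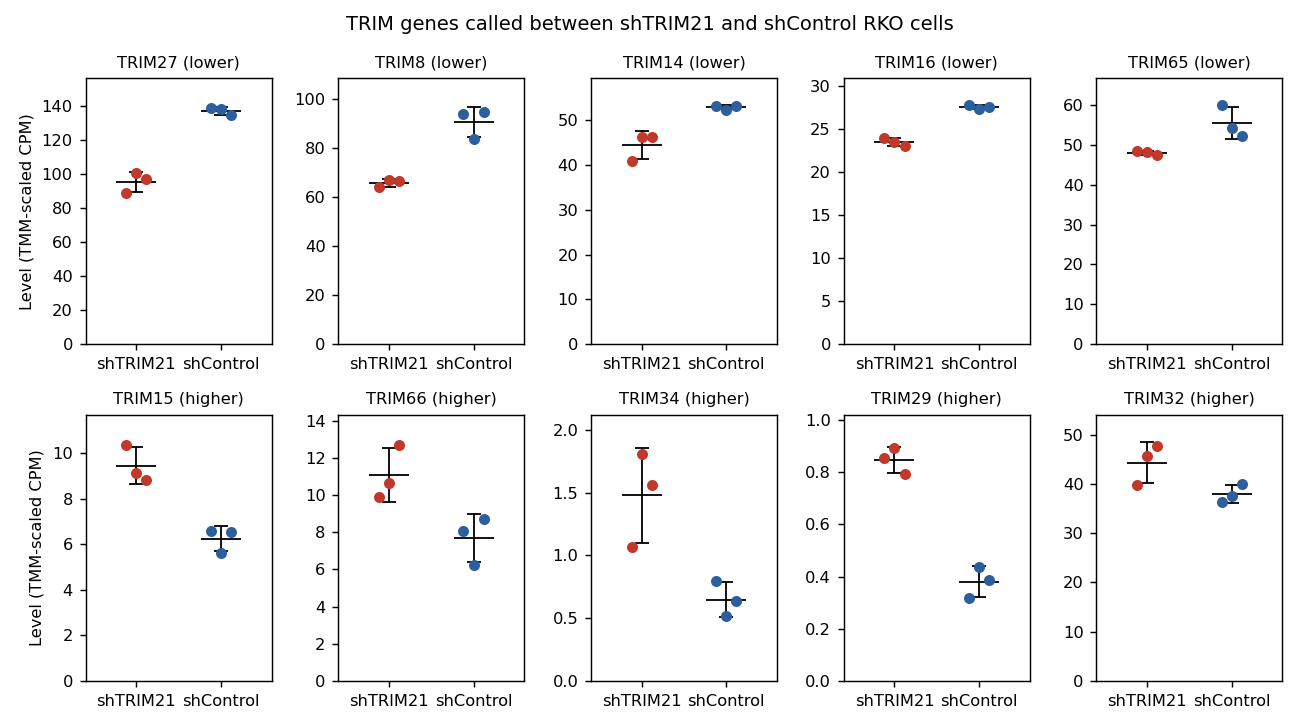
Level of the 10 called TRIM genes in TMM-scaled CPM, from 0, with 1 point per library and a bar at the mean with its SD (n = 3 per group), shTRIM21 left and shControl right. In 9 panels the groups do not overlap, and in TRIM32 shTRIM21 replicate 1 (39.7 CPM) lies below shControl replicate 3 (39.96 CPM).

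TRIM27, first known as the ret finger protein from its fusion with the RET kinase, had the smallest p-value of the family. It lies on chromosome 6 at 28903002 to 28923985 (GRCh38.p14, minus strand). TRIM27 had 3340, 3928 and 3668 counts in shTRIM21 and 5241, 5070 and 4873 in shControl, or 95.4 ± 5.78 CPM and 137 ± 2.30 CPM (SD, n = 3 each). All shTRIM21 libraries were well below all shControl libraries. TRIM27 fell by 30.4%, or -0.52 on the log2 scale with a 95% interval of -0.64 to -0.40 (SE 0.0560, edgeR adjusted p = 1.32e-05). The call was lost with library sizes alone (-0.31, edgeR adjusted p = 0.187) and kept under the other 16 alternatives.

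TRIM8, a RING protein without a further C-terminal domain that acts in cytokine and NF-kB signalling, fell by 27.4%. It lies on chromosome 10 at 102644479 to 102658319. TRIM8 had 2396, 2616 and 2521 counts in shTRIM21 and 3546, 3069 and 3420 in shControl, or 65.7 ± 1.64 CPM and 90.6 ± 6.16 CPM (SD, n = 3 each). The groups did not overlap, with the lowest shControl library at 83.5 CPM. On the log2 scale the change was -0.46 with a 95% interval of -0.59 to -0.33 (SE 0.0607, edgeR adjusted p = 9.12e-05), and -0.24, not called, with library sizes alone (edgeR adjusted p = 0.32).

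TRIM14, TRIM16 and TRIM65 were lower by smaller amounts. TRIM14, a RING-less adaptor of antiviral signalling at mitochondria, had 40.9, 46.2 and 46.3 CPM in shTRIM21 and 53.04, 52.3 and 53.1 CPM in shControl (log2 fold change -0.25, SE 0.0640, edgeR adjusted p = 0.0129). Of its exonic bases, 7.72% overlap NANS on the opposite strand, and NANS was also called lower (-0.23, SE 0.0723, edgeR adjusted p = 0.0345). Whether counting used strand is not known here, so reads of that stretch cannot be told apart. TRIM16, a RING-less member that takes part in the clearance of damaged lysosomes, had 23.96, 23.5 and 23.04 CPM in shTRIM21 and 27.8, 27.3 and 27.5 CPM in shControl (log2 fold change -0.23, SE 0.0683, edgeR adjusted p = 0.0284). Of the 50-base words of TRIM16 transcripts, 46.6% also occur in other genes, and 28.9% in its copy TRIM16L. TRIM16L was not called (-0.044, SE 0.108). TRIM65, a SPRY-class ligase of the RNA sensor MDA5, had 48.5, 48.05 and 47.4 CPM in shTRIM21 and 59.9, 54.1 and 52.1 CPM in shControl (log2 fold change -0.21, SE 0.0639, edgeR adjusted p = 0.0318). In each of the 3 genes every shTRIM21 library was below every shControl library.

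Each of these 3 calls was lost under more alternatives than those of TRIM27 and TRIM8. TRIM14 was not called with library sizes alone (edgeR adjusted p = 0.902) or without shTRIM21 replicate 1 (-0.19, edgeR adjusted p = 0.0549). TRIM16 was not called with upper-quartile factors, with library sizes alone, or without any of shTRIM21 replicates 2 and 3 and shControl replicates 1 and 3. TRIM65 was not called with upper-quartile factors or without any of the 3 shTRIM21 libraries or shControl replicate 1, and its estimate was 0.0034 with library sizes alone. TRIM47, which lies 955 bases from TRIM65 on the same strand of chromosome 17, was at -0.14 (SE 0.0620, edgeR adjusted p = 0.115), and 0.064 with library sizes alone.

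TRIM15, a SPRY-class protein of focal adhesions, had the smallest adjusted p of the higher genes. It lies on chromosome 6 at 30163546 to 30172693 (plus strand). TRIM15 had 389, 358 and 334 counts in shTRIM21 and 249, 206 and 237 in shControl, or 9.44 ± 0.815 CPM and 6.25 ± 0.557 CPM (SD, n = 3 each). The lowest shTRIM21 library, at 8.82 CPM, was above the highest shControl library, at 6.60 CPM. TRIM15 rose 1.51-fold (log2 fold change 0.60, SE 0.117, 95% interval 0.35 to 0.84, edgeR adjusted p = 0.00227), and its call was kept under all 17 alternatives.

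TRIM66, a PHD and bromodomain reader of chromatin best known from the testis, rose 1.44-fold. It had 372, 417 and 480 counts in shTRIM21 and 305, 230 and 316 in shControl, or 11.08 ± 1.43 CPM and 7.69 ± 1.28 CPM (SD, n = 3 each). The groups did not overlap, with shTRIM21 replicate 1 at 9.91 CPM and shControl replicate 3 at 8.72 CPM the nearest. The log2 fold change of TRIM66 was 0.53 (SE 0.132, edgeR adjusted p = 0.0111), and 0.42, not called, without shTRIM21 replicate 3 (edgeR adjusted p = 0.0556). Of its exonic bases, 0.800% overlap RPL27A on the opposite strand, which had 16799 to 19102 counts in the shTRIM21 libraries and was not called.

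TRIM34 and TRIM29 had the largest fold changes and few counts. TRIM34, a SPRY-class relative of TRIM5 that acts on retroviral capsids, had 40, 71 and 59 counts in shTRIM21 and 30, 19 and 23 in shControl. It rose 2.27-fold (log2 fold change 1.18, SE 0.314, 95% interval 0.52 to 1.85, edgeR adjusted p = 0.0152), and the groups did not overlap. The TRIM34 call was lost without shTRIM21 replicate 2 (edgeR adjusted p = 0.0879) or without shControl replicate 2 (edgeR adjusted p = 0.0547). The readthrough gene TRIM6-TRIM34 covers 83.01% of TRIM34 exonic bases and held more counts: 125, 141 and 145 in shTRIM21 and 109, 77 and 83 in shControl. TRIM6-TRIM34 was also called higher (0.56, SE 0.182, edgeR adjusted p = 0.0393), so reads of the 2 rows cannot be told apart, and it was not called without any of the 3 shTRIM21 libraries or shControl replicates 2 and 3. TRIM6, at the other end of that readthrough, was not called (0.18, SE 0.158).

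TRIM29, a RING-less member of stratified epithelia also studied in carcinomas, had 32, 35 and 30 counts in shTRIM21 and 12, 16 and 14 in shControl. These are 0.846 ± 0.0508 CPM and 0.380 ± 0.0590 CPM (SD, n = 3 each), and the groups did not overlap. TRIM29 rose 2.22-fold (log2 fold change 1.15, SE 0.343, edgeR adjusted p = 0.0275). Leaving out any single library ended this call. TRIM32, an NHL-class ligase whose mutation causes a limb-girdle muscular dystrophy, had 39.7, 45.6 and 47.6 CPM in shTRIM21 and 36.2, 37.6 and 39.96 CPM in shControl. The lowest shTRIM21 library was just below the highest shControl library, and TRIM32 rose 1.17-fold (log2 fold change 0.22, SE 0.0743, edgeR adjusted p = 0.0437), a call lost without any library other than shTRIM21 replicate 1.

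**Figure D3:**
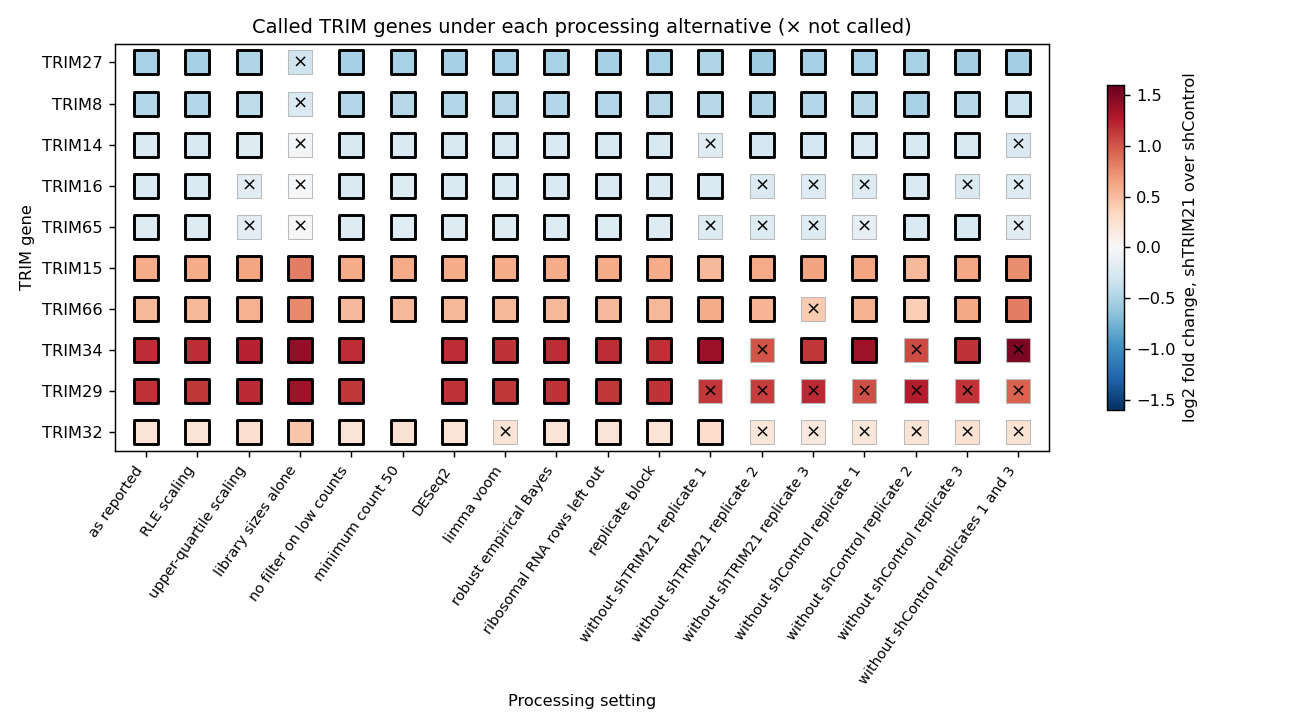
Log2 fold change (colour) of the 10 called TRIM genes in the reported fit and under 17 processing alternatives. Bold outlines mark calls, crosses mark settings where the gene was not called (adjusted p of 0.05 or more), and blank cells mark genes that the stricter count filter removed. TRIM15 was called in every setting, and TRIM27 and TRIM8 in all but library sizes alone.

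The other 37 tested members were not called, 25 with an estimate above 0 and 12 below, from -0.21 (TRIM5) to 0.91 (TRIM54). For the 24 of them that averaged 10 CPM or more in shTRIM21 or shControl, the 95% intervals of the log2 fold change lay between -0.42 and 0.42. A larger change of these members was outside the interval of each at the TMM scaling. TRIM28 had 29391, 30753 and 28503 counts in shTRIM21 and 30861, 28079 and 30985 in shControl, with overlapping groups (log2 fold change -0.070, 95% interval -0.19 to 0.05). TRIM25 had 196, 202 and 205 CPM in shTRIM21 and 215, 211 and 216 CPM in shControl (log2 fold change -0.092, 95% interval -0.20 to 0.01). Its groups did not overlap, but the difference was not called (edgeR adjusted p = 0.202). With library sizes alone the estimates of TRIM28 and TRIM25 were 0.15 and 0.12. Wide intervals belonged to members near or under 1 CPM, such as TRIM10 (-0.15 to 1.23), TRIM22 (-0.69 to 1.13), TRIM54 (-0.09 to 1.92), TRIM73 (-0.53 to 1.16) and TRIM74 (-0.65 to 1.21). Of TRIM74's 50-base words, 91.7% also occur in TRIM73, so the counts of these copies are uncertain. Groups did not overlap for 6 uncalled members, TRIM13, TRIM25, TRIM46, TRIM54, TRIM62 and TRIM68.

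Of the uncalled members, 8 had an unadjusted p under 0.05, a level that 34.1% of all tested genes passed. TRIM2, an NHL-class ligase of neurofilament light chain in neurons, was at 0.20 (SE 0.0718, edgeR adjusted p = 0.063). TRIM46, which organises microtubules at the axon initial segment, was at 0.53 (SE 0.206) with 99, 98 and 124 counts in shTRIM21 and 64, 69 and 81 in shControl, groups that did not overlap. TRIM26 was at 0.21 (SE 0.0872), where shControl replicate 3 lay lowest at 43.0 CPM. On the lower side, TRIM33, a chromatin reader that acts on SMAD signalling, was at -0.17 (SE 0.0678). TRIM7, known to bind glycogenin, was at -0.19 (SE 0.0811) and TRIM35 at -0.18 (SE 0.0808). TRIM5, which blocks retroviral capsids, was at -0.21 (SE 0.0970) and TRIM47 at the value given above. The groups of these 8 overlapped except in TRIM46.

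By structural class, the share called was 19.0% to 25% in the 4 classes with a call other than that without RING, beside 20.8% of all tested genes. It was 60.0% in the class without RING, which has 5 members. Of 21 tested members of the RING, B-box and SPRY class, to which TRIM21 belongs, 2 were higher (TRIM34 and TRIM15) and 2 lower (TRIM27 and TRIM65), with a median log2 fold change of 0.052. Of 4 PHD and bromodomain members 1 was higher (TRIM66), while TRIM24, TRIM28 and TRIM33 were not called. Of 4 tested members with filamin or NHL repeats 1 was higher (TRIM32), and the estimates of TRIM2, TRIM3 and TRIM45 were 0.20, 0.13 and 0.21. Among the 5 members that lack a RING and have no bromodomain, 1 was higher (TRIM29) and 2 lower (TRIM14 and TRIM16), and TRIM44 was at 0.11 (SE 0.0747). TRIM8 was the 1 called member of the 5 tested without a further C-terminal domain, where TRIM52 and TRIM56 were at 0.24 and 0.056. In the SPRY class TRIM4, TRIM11, TRIM41 and TRIM62 were at -0.037, 0.038, 0.13 and 0.15. The transmembrane members TRIM13 and TRIM59, the ARF-domain member TRIM23 and the MATH-domain member TRIM37 were not called, with estimates of 0.14, 0.049, 0.066 and 0.0032. The microtubule-binding members TRIM9, TRIM36 and TRIM46, and the muscle gene TRIM54, were also not called. TRIM59 shares 19.8% of its exonic bases with SMC4 on the opposite strand, which was called lower (-0.16, SE 0.0491, edgeR adjusted p = 0.0295). Of the tested members, 16 have exonic bases in common with another gene of the table.

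**Figure D4:**
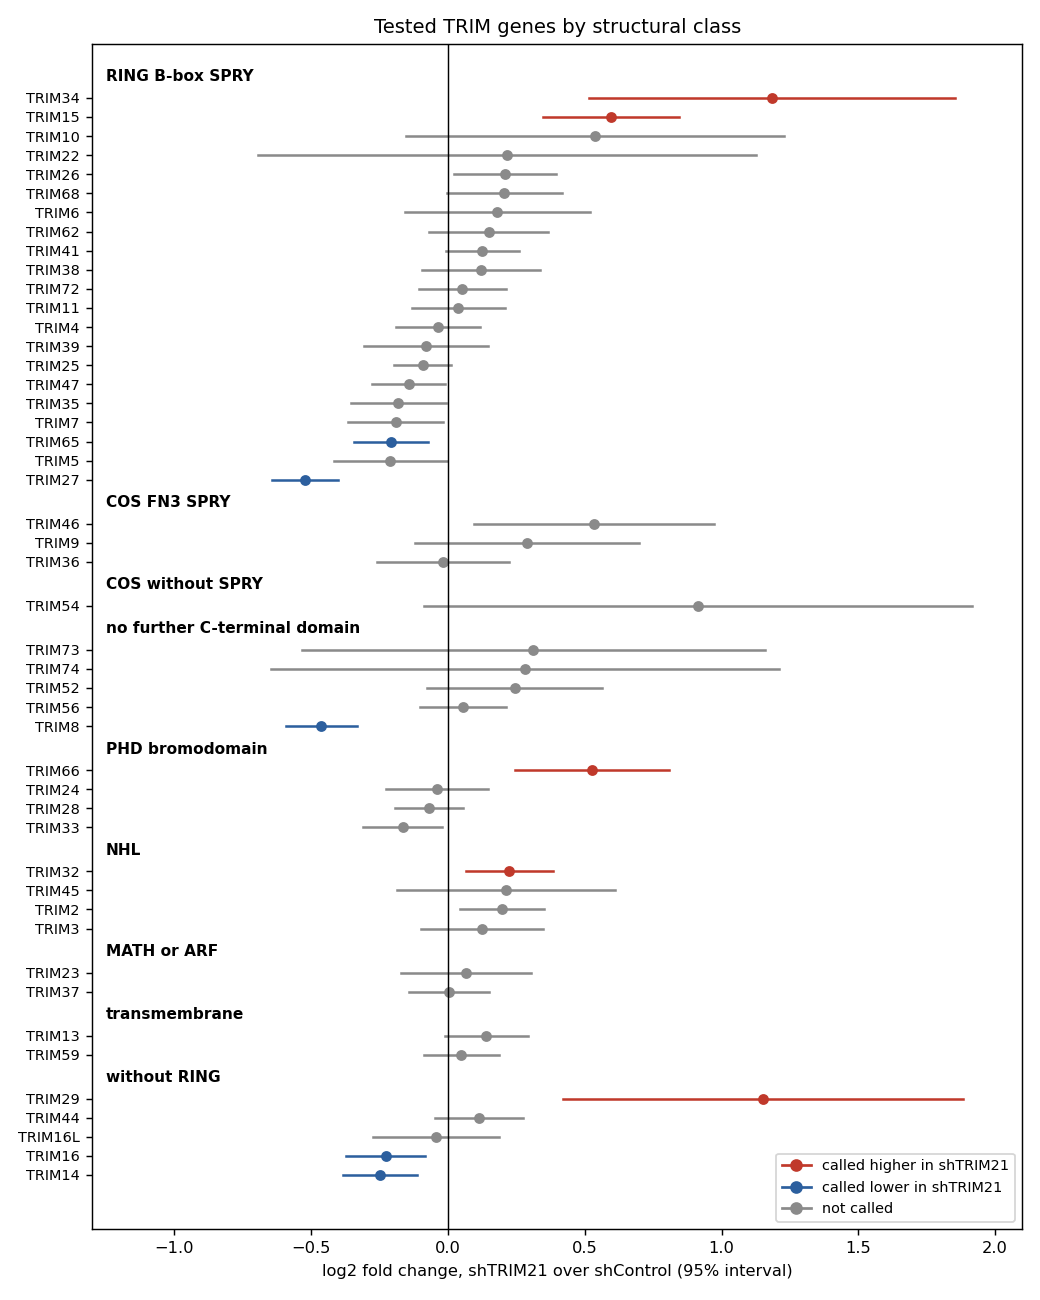
Log2 fold change of shTRIM21 over shControl with its 95% interval for the 47 tested TRIM genes, grouped by structural class and coloured by call. Called genes appear in 5 of the 9 groups, and intervals widen for members of low level such as TRIM22, TRIM54, TRIM73 and TRIM74.

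Many TRIM genes lie in clusters. On chromosome 6, 8 members lie between positions 25962802 and 30343729, in and beside the major histocompatibility complex. There TRIM27 was lower and TRIM15 higher, while TRIM38 (0.12), TRIM10 (0.54), TRIM26 (0.21) and TRIM39 (-0.080) were not called, TRIM31 was too low to test and TRIM40 was listed at 0. TRIM10, an erythroid gene next to TRIM15, had 42, 60 and 40 counts in shTRIM21 and 21, 31 and 42 in shControl, with overlapping groups. On the short arm of chromosome 11, where TRIM21 lies at 4384897 to 4393702, 7 members lie between positions 4598672 and 8683231. Of these TRIM34 and TRIM66 were higher, and TRIM68 (0.21), TRIM5 (-0.21), TRIM6 (0.18), TRIM22 (0.22) and TRIM3 (0.13) were not called. Thus 1 of 6 tested was higher and 1 lower on chromosome 6, and 2 of 7 were higher on chromosome 11. Of all tested genes, 9.77% were higher and 11.0% lower. The TRIM34 row cannot be told apart from its readthrough TRIM6-TRIM34, and a part of position in these calls was not tested.

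Among the 9 members listed as interferon-regulated, 8 were tested, with 1 higher (TRIM34) and 1 lower (TRIM14) and a median log2 fold change of 0.089. The share called was 25%, beside 20.8% of all tested genes. An unadjusted p under 0.05 was reached by 4 of the 8 (50%), beside 34.1% of all tested genes. TRIM5, TRIM22, TRIM25, TRIM26, TRIM38 and TRIM56 were not called and TRIM69 was too low to test. The motif GAAANNGAAA, the core of an interferon-stimulated response element, was searched on both strands from 250 bases before to 50 after the start used in the promoter table. It occurred in 9 of the 55 members with a promoter sequence (16.4%), beside 996 of 27305 promoters of all genes (3.65%). A match is a description and not a site. Among the 9 were also TRIM2 and TRIM44, which were not called, and TRIM64C, listed at 0, whose windows are left out. The windows below, from RefSeq (GRCh38.p14), show matches of the listed members and of the called member TRIM16. Each is 30 bases of the gene's own strand with the match in capitals, where TTTC marks a match on the opposite strand.
TRIM34 (chr11:5624901-5624930, plus strand): gccccaaaaaTTTCACTTTCatttctcagg
TRIM5 (chr11:5685082-5685111, minus strand): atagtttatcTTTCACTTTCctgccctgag
TRIM14 (chr9:98119229-98119258, minus strand): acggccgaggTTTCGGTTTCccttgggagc
TRIM26 (chr6:30213581-30213610, minus strand): tcccgcctgaTTTCAGTTTCcatttcgctg
TRIM69 (chr15:44736456-44736485, plus strand): ctaatgagggTTTCTCTTTCtcttaagcaa
TRIM16 (chr17:15683012-15683041, minus strand): acagaggtaaGAAATAGAAAtaaagggtcc
TRIM26 held a second match that overlaps the first. TRIM34 and TRIM5 share the 10 matched letters, and TRIM34 was called higher while TRIM5 was not called at -0.21. These letters were not in the windows of TRIM25, TRIM38 and TRIM56. TRIM22 was not analysed here for the motif.

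Interferon-stimulated genes outside the family were higher for 6 and lower for 0 of 21 tested by edgeR, beside 9.77% higher and 11.0% lower of all tested genes, with a median log2 fold change of 0.066. With limma voom 4 of the 21 were called, beside 3105 of all 15131 tested genes. The antiviral RNA-binding gene IFIT1 had 301, 238 and 290 counts in shTRIM21 and 170, 161 and 119 in shControl (0.84, SE 0.156, edgeR adjusted p = 0.0016). IRF9, part of the transcription factor complex of interferon signalling, was at 0.53 (SE 0.118). IFI6, HERC6 and the ubiquitin-like modifier gene ISG15 were at 0.46 (SE 0.118), 0.51 (SE 0.173) and 0.18 (SE 0.0619). The calls of IFIT1 and IRF9 were kept under all 17 alternatives, that of IFI6 was lost without shTRIM21 replicate 1, and those of HERC6 and ISG15 were each lost without any of 5 single libraries. Limma voom called neither HERC6 nor ISG15, and the ISG15 call was also lost with library sizes alone and with ribosomal rows left out. Earlier results of these data already showed this list, so it is not independent support. Over the 17 alternatives the log2 fold changes were 0.70 to 1.04 for IFIT1, 0.47 to 0.75 for IRF9 and 0.38 to 0.68 for IFI6. Those of HERC6 and ISG15 were 0.28 to 0.74 and 0.12 to 0.39. Of 9 tested genes of the RIG-I pathway in which TRIM25 acts, edgeR called 1 higher and 0 lower (11.1%, beside 20.8% of all tested genes), DESeq2 called 0 higher and 1 lower, and limma voom called 0. An unadjusted p under 0.05 was reached by 4, of which MAVS, TAB1 and ZC3HAV1 had estimates of -0.16, -0.17 and -0.18, and MAVS was the gene called by DESeq2. The RIG-I gene DDX58 was at 0.35 (SE 0.119, edgeR adjusted p = 0.0462), a call lost with DESeq2 and without any single library other than shTRIM21 replicate 2.

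The lists of genes that work with TRIM ligases are read beside the 20.8% called, and the 34.1% at an unadjusted p under 0.05, of all tested genes. Of 16 ubiquitin, E1 and E2 genes 0 were called by edgeR in either direction, and the smallest p was that of the E1 gene UBA1 (-0.13, SE 0.0495, edgeR adjusted p = 0.0862). At an unadjusted p under 0.05 there were 4 of the 16 (25%), DESeq2 called 2, UBA1 among them, and limma voom called 1. UBE2N and UBE2D3, E2 genes that many TRIM ligases use, were at 0.0068 (SE 0.0526) and 0.0027 (SE 0.0506). Of 9 TRIM28 co-repressor partner genes 0 were called by edgeR as reported, with 2 at an unadjusted p under 0.05 (22.2%). DESeq2 and limma voom each called 1, RBBP4, which gained a call under 5 of the 17 alternatives. The log2 fold changes ran between -0.077 for the histone methyltransferase gene SETDB1 and 0.14 for the histone chaperone gene RBBP4. Of 4 partners of TRIM24 and TRIM33, SMAD2, SMAD3, SMAD4 and RARA, 0 were called by edgeR, by DESeq2 or by limma voom, and 0 had an unadjusted p under 0.05. The smallest p was that of SMAD4 (-0.12, SE 0.0592).

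Of 10 tested genes around TRIM27 and the WASH complex, which TRIM27 ubiquitinates on endosomes, 1 rose and 1 fell. The retromer gene VPS35 was at 0.16 (SE 0.0493, edgeR adjusted p = 0.0335) and the WASH subunit gene WASHC2C at -0.20 (SE 0.0631, edgeR adjusted p = 0.0382), or 0.013 with library sizes alone. The VPS35 call was lost without any single library, and that of WASHC2C without any but shControl replicate 1. MAGEL2, the partner that brings TRIM27 to this complex, was listed at 0. Of 6 TRIM genes that carry other names 4 were tested, and edgeR called 1 higher and 0 lower (25%, beside 20.8% of all tested genes). MID1, a microtubule-bound ligase, had 2810, 3057 and 2935 counts in shTRIM21 and 2569, 2346 and 2312 in shControl. MID1 was higher (0.24, SE 0.0557, edgeR adjusted p = 0.00761), a call lost without shTRIM21 replicate 2. PML, the organiser of nuclear bodies, was at 0.20 (SE 0.0692) and not called by edgeR (adjusted p = 0.0514), while DESeq2 called it higher. MID2 was at -0.27 (SE 0.137) with groups that did not overlap, and TRIML2 was at 0.043 (SE 0.155). Neither MID2 nor TRIML2 was called.

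**Figure D5:**
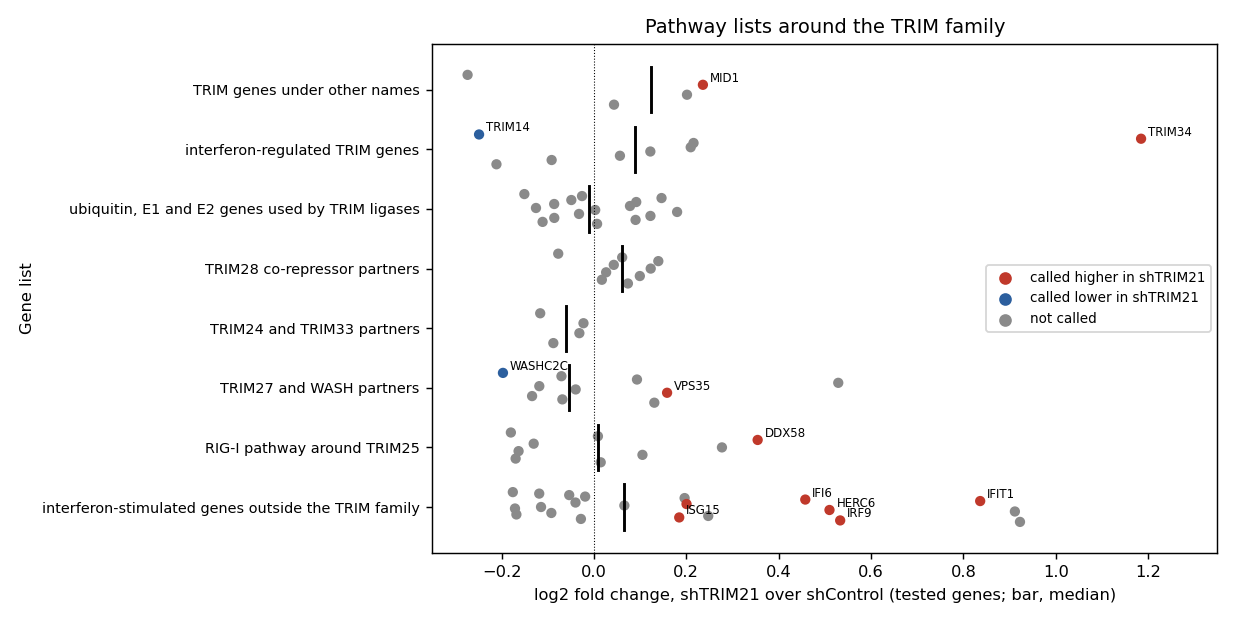
Log2 fold change of shTRIM21 over shControl for each tested gene of 8 lists around the TRIM family, coloured by call, with the called genes of the text named and a bar at each list's median. The ubiquitin, E1 and E2 list holds no call, and 6 of 21 interferon-stimulated genes outside the family are called higher.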

How the data were processed

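Each library came as 1 deposited table of whole-number counts by gene symbol, as the authors left them before any scaling. Per the submitters' processing notes, the tools were TopHat2, limma 3.52.2 and edgeR 3.38.1, and hg38 was the build; which step each served is unstated. Which program, annotation and strand setting produced the counts is not given in the sources used here. One label field names mouse tissue, but organism, line and symbols are human.

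Software was edgeR 4.0.16, DESeq2 1.42.0 and limma 3.58.1 under R 4.3.3. Genes passing filterByExpr (minimum count 10, minimum total 15) were scaled by TMM factors, and all 6 libraries entered 1 quasi-likelihood model in edgeR whose only factor was the hairpin. P-values were adjusted over 15131 genes by the Benjamini-Hochberg method. Each SE was obtained from the log2 estimate and its F statistic. The script was tested on simulated data. Positions are from RefSeq (GRCh38.p14), lengths, overlaps and shared 50-base words from GENCODE release 29. All 71 members matched.

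Members, classes and lists were chosen with earlier results of these data known. Every called member was named, with members of unadjusted p under 0.05, extremes of level per class, members too low or at 0, and called list genes or else the smallest p. NANS, RPL27A, SMC4 and TRIM6-TRIM34 were added as overlapping genes, and UBE2N, UBE2D3, SETDB1, PML, MID2 and TRIML2 after their values were seen. The marker genes EPCAM, KRT20, VIL1, CDX2 and COL1A1 were also named after their values were seen. Some list genes are not reported here by name.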

Additional observations from a re-analysis of the deposited data

How the results depend on the processing

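Over 17 alternatives, the 47 tested members gave 792 values, of which 709 kept direction and side of the threshold, 36 lost and 8 gained a call in the same direction, and 39 changed sign, among them TRIM65 with library sizes alone, which also lost its call. Genes called over the whole table numbered 3146 as reported, 1969 with library sizes alone, 1958 without shControl replicates 1 and 3, and 1844 to 2592 without single libraries. TRIM members called numbered 10, against 6, 4 and 5 to 9 under the same settings. Calls in the pathway lists numbered 10, against 6 with the replicate block, 5 without shControl replicates 1 and 3 and 4 to 10 without single libraries. The log2 fold change of TRIM21 was -0.34, not called (edgeR adjusted p = 0.197), with library sizes alone and -0.65 to -0.47 without single libraries. The replicate block left 10 members called and 2905 genes in all, and ended the calls of TRIM6-TRIM34 (edgeR adjusted p = 0.0502), DDX58, ISG15, VPS35 and WASHC2C (0.0538 to 0.0612). The deviations of same-numbered libraries correlated at -0.0131, 0.0057 and -0.0798, so the numbers were not taken as pairs.

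With library sizes alone these log2 fold changes turned positive: TRIM4 0.17, TRIM7 0.0067, TRIM16L 0.18, TRIM24 0.16, TRIM25 0.12, TRIM28 0.15, TRIM33 0.043, TRIM35 0.026, TRIM36 0.20, TRIM39 0.13, TRIM47 0.064, TRIM65 0.0034, SMAD4 0.090, UBA1 0.089 and WASHC2C 0.013. Upper-quartile factors turned TRIM4 to 0.0040, TRIM24 to 0.0016 and TRIM36 to 0.023. TRIM37 was at -0.00040 with no filter on low counts and -0.0039 without ribosomal rows. Without shControl replicates 1 and 3, TRIM11 was at -0.11, TRIM16L 0.15, TRIM28 0.011, TRIM36 0.15, TRIM37 -0.040, TRIM44 -0.0027, TRIM56 -0.035 and TRIM72 -0.082. Without single libraries the ranges that crossed 0 were -0.058 to 0.11 for TRIM11, -0.14 to 0.0042 for TRIM16L, -0.085 to 0.54 for TRIM22, -0.011 to 0.16 for TRIM23, -0.093 to 0.051 for TRIM24, -0.10 to 0.044 for TRIM36, -0.063 to 0.065 for TRIM37, -0.024 to 0.12 for TRIM72 and -0.050 to 0.70 for TRIM74. Library sizes alone scale each library by its total count and leave out the TMM factors, and the cause of the other changes was not tested. The 7 widest intervals of the tested members belonged to TRIM54, TRIM74, TRIM22, TRIM73, TRIM29, TRIM10 and TRIM34, which averaged 1.06 CPM or less over the libraries.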
